A study of Mus musculus with 2 samples.

Results

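The 10 immediate early response genes Fos, Fosb, Jun, Junb, Jund, Atf3, Egr1, Nr4a1, Ier2 and Dusp1 were compared between mouse leukaemia cells of the B-cell acute lymphoblastic type (B-ALL) that carried a high or a low SoNar signal. The genes were found through the RefSeq transcript accession of each array probe, and each had 1 probe among the 20618 genes named on the array. All 10 were well above background on both arrays, as were 51.0% of the named genes, so no gene of the family was lost to the filter on dim probes. They are 10 of the 10517 genes measured on both arrays.

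SoNar is a fluorescent protein sensor of the balance between NADH and NAD+ in the cytosol, and sorting on it separates leukaemic cells by redox state. The SoNar-high and the SoNar-low group were each B-ALL cells sorted from the bone marrow of C57BL mice aged 8 weeks, with total RNA on 1 single-colour array per group. The sample titles call the same groups N-myc-high and N-myc-low, and the labels explain neither that name, nor how the leukaemia was made, nor whether mice were pooled. With 1 array per group there is no replicate error, so no test was made, and all values compare these arrays and not the conditions.

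The arrays differed in detection. SoNar-high had 72.9% of its 43020 non-control spots well above background and SoNar-low 44.8%, and the lowest detected processed signals were 19.7 and 46.4 arbitrary units. The arrays were scanned in different sessions, so scan and group cannot be told apart. Of 15 B cell markers 12 were detected on both arrays. Cd79a of the B cell receptor had signals of 379 and 440 on the SoNar-high and SoNar-low arrays, and the B lineage factors Ebf1 and Pax5 553 and 948, and 226 and 186. Of the early B cell genes, Igll1, Rag1 and Rag2 were detected on neither array. Vpreb3 (9345 and 12061), Vpreb1 (128 and 118) and Dntt (169 and 182) were detected on both.

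Immediate early genes are transcribed soon after a cell receives a growth, stress or antigen receptor signal, without new protein synthesis. FOS proteins pair with JUN proteins to form the transcription factor AP-1, ATF3 is a stress-induced partner of the same leucine zipper superfamily, and EGR1 and NR4A1 are a zinc finger factor and an orphan nuclear receptor. DUSP1 is a phosphatase that switches off MAP kinases, and IER2 is a small nuclear protein. Signals reach these promoters through MAP kinases acting on serum response factor and its ternary complex partners, and through CREB acting on cAMP response elements. The transcripts decay fast, so their level follows recent signalling. Jund differs in being expressed more steadily than its relatives, and in B cells Nr4a1 is known as a reporter of antigen receptor signalling.

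Promoter windows, from 250 bases before to 50 after the annotated start, were found in the RefSeq table (GRCm38.p6) for 8 of the 10 genes, and Egr1 and Ier2 had no entry. Shown here are Jun and Nr4a1, which were among the 3 genes with the lowest differences below, and Fos and Dusp1, which lay close to the median of all genes. Fos is on the plus strand at chr12:85473640-85473939, Dusp1 on the minus strand at chr17:26508423-26508722, Nr4a1 on the plus strand at chr15:101266596-101266895 and Jun on the minus strand at chr4:95052173-95052472. Each is written 5′ to 3′ on the strand of its gene, and capitals mark matches, on either strand, of the motifs searched, which were the cAMP response element TGACGTCA, its core TGACG, the AP-1 motif TGANTCA, the CArG box bound by serum response factor, the EGR motif GCGNGGGCG and the TATA motif TATAAA.
Fos: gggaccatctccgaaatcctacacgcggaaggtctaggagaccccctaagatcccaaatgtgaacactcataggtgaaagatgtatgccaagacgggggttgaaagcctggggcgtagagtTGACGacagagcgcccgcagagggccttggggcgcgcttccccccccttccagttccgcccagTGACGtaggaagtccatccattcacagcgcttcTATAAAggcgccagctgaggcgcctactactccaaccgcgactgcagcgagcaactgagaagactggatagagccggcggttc
Dusp1: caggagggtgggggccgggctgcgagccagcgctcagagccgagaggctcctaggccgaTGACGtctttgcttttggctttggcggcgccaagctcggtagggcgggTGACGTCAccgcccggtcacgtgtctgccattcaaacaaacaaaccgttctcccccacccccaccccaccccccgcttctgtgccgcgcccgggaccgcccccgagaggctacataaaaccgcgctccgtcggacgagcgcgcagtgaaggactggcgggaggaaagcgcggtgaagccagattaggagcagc
Nr4a1: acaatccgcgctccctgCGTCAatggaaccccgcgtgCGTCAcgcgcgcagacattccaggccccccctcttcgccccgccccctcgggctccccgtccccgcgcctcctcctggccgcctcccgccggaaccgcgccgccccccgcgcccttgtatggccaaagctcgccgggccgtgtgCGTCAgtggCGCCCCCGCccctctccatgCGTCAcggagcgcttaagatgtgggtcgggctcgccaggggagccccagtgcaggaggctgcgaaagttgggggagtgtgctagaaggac
Jun: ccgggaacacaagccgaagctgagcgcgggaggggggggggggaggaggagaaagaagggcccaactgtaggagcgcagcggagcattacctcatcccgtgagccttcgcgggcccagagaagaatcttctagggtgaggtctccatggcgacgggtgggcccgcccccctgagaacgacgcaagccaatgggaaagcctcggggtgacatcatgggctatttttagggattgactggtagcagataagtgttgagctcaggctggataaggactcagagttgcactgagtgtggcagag

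The core TGACG, read on both strands, was present in 6 of the 8 windows, those of Fos, Fosb, Junb, Atf3, Nr4a1 and Dusp1, and in 20.8% of the 32851 windows of all genes. It lay at -129 and -66 from the start in Fos, and its reverse complement lay at -233, -213, -69 and -40 in Nr4a1. The full element TGACGTCA, which contains the core on both strands, was present only in Dusp1, at -143, and in 1.79% of all windows. The windows of Jun and Jund held neither. The median GC content was 65.0% in the 8 windows and 52.7% in all windows, and the core was present in 28.6% of the 16762 windows at or above that overall median. The TATA motif was present in Fos, at -33, and in Junb (13.6% of all windows). In Junb it lay at 1 to 6, so it began at the annotated start and not upstream of it as in Fos. The EGR motif was present in Fosb and Nr4a1 (5.55%). The AP-1 motif (7.81% of all windows) and the CArG box (1.63%) had no match in the 8 windows, which says only that these letters are not in them. A match is a description of the sequence and not a bound site.

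The JUN family split. Processed signals are given first, as background-subtracted fluorescence before scaling between the arrays. Jun, the main AP-1 partner of FOS, had a signal of 1018 ± 102 in SoNar-high and 1766 ± 177 in SoNar-low, where the error is the scanner software's own estimate for the spot. Jund, the JUN protein linked to slower growth, had 14736 ± 1474 and 25853 ± 2585. Both genes were lower on the SoNar-high array by more than these errors. Junb, a JUN protein that can oppose Jun, had 121 ± 13 and 91.3 ± 14.4, so its order was the other way, by little more than these errors. The Junb signal on the SoNar-low array was only 1.97 times the lowest detected signal there, against 38.1 times for Jun and 558 times for Jund.

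After each array was scaled to its 75th percentile, the log2 difference, taken as SoNar-high minus SoNar-low throughout, was -0.94 for Jun and -0.96 for Jund, or 1.92-fold and 1.94-fold lower on the SoNar-high array. Both errors, taken from the spot errors, were 0.20. These differences stood at percentiles 2.45 and 2.21 of the 10517 measured genes. Junb had a difference of 0.27 with an error of 0.28. The gap between Junb and Jun was 1.21 and that between Junb and Jund 1.22, and a common scaling factor cannot change these gaps. With cyclic loess, quantile normalization and the authors' deposited table, which bend the scale with brightness, Junb came to -0.11, -0.17 and -0.18, while Jun stayed between -0.80 and -0.73 and Jund between -0.89 and -0.72.

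The FOS genes lay close to the median of all genes. Fos had 10 spots of its probe on each array, which are technical repeats. The lowest, median and highest signals were 677, 734 and 773 in SoNar-high and 621, 783 and 956 in SoNar-low. All SoNar-high spots lay within the SoNar-low range, and the spots spread more on the SoNar-low array, with a coefficient of variation of 15.5% against 5.02%. The log2 difference was -0.22 ± 0.27 (SD over 10 spots), below 0 in 7 spots and above 0 in 3. Fosb, whose product replaces FOS in some AP-1 dimers, had signals of 613 ± 61.4 and 578 ± 58.8 and a difference of -0.06 with an error of 0.21. The standard error of the Fos mean was 0.08 over its spots and 0.06 from the software's spot errors. Both leave out the error of scaling between the arrays, so they cannot place Fos below 0. Measured genes of like brightness had a median of -0.23. With a 75th percentile over only the spots detected on both arrays Fos came to 0.00. The Fosb difference was smaller than its error.

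**Figure D1:**
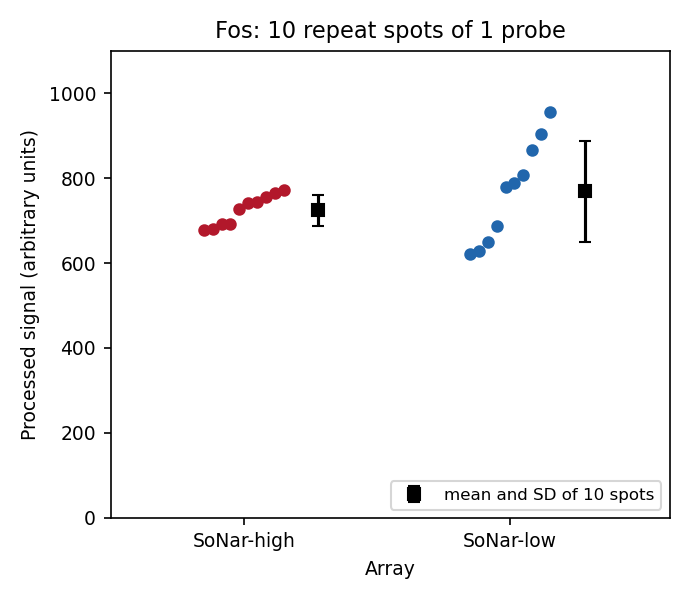
Processed signal in arbitrary units of the 10 repeat spots of the Fos probe on each array (points, sorted within an array only for display), with the mean and SD of the spots as squares and bars. The SoNar-low spots run from 621 to 956 and enclose all SoNar-high spots, which run from 677 to 773.

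Atf3, the stress-induced member of the superfamily, was dim. It gave 96.8 ± 11.1 in SoNar-high and 77.5 ± 15.5 in SoNar-low, the latter 1.67 times the lowest detected signal of its array. The log2 difference was 0.18 with an error of 0.33, so the arrays did not differ beyond it, and the sign turned to -0.31 with quantile normalization, -0.25 with normexp and -0.35 in the authors' deposited table.

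The EGR and NR4A genes were lower on the SoNar-high array. Nr4a1 had signals of 560 ± 56.1 and 893 ± 90.1, with a log2 difference of -0.82 and an error of 0.21, which is 1.76-fold lower and at percentile 5.27 of all measured genes. Egr1 had signals of 57.9 ± 7.07 and 77.4 ± 12.6. Its difference of -0.56 (error 0.29, percentile 18.0) rests on signals of 2.94 and 1.67 times the lowest detected signal of their arrays. The Egr1 value depended on the setting. It came to -1.10 with quantile normalization, -1.15 with cyclic loess and -1.27 in the authors' deposited table, but to -0.47 with normexp.

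Dusp1 and Ier2 did not differ beyond their errors. Dusp1 had signals of 336 ± 34 and 336 ± 36.1, equal before scaling, and a log2 difference of -0.15 with an error of 0.21. Ier2 had signals of 83.7 ± 9.28 and 71.1 ± 12.2, or 1.53 times the lowest detected signal on the SoNar-low array. Its difference was 0.09 with an error of 0.29, and it turned to -0.44 with quantile normalization and -0.49 in the authors' deposited table.

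**Figure D2:**
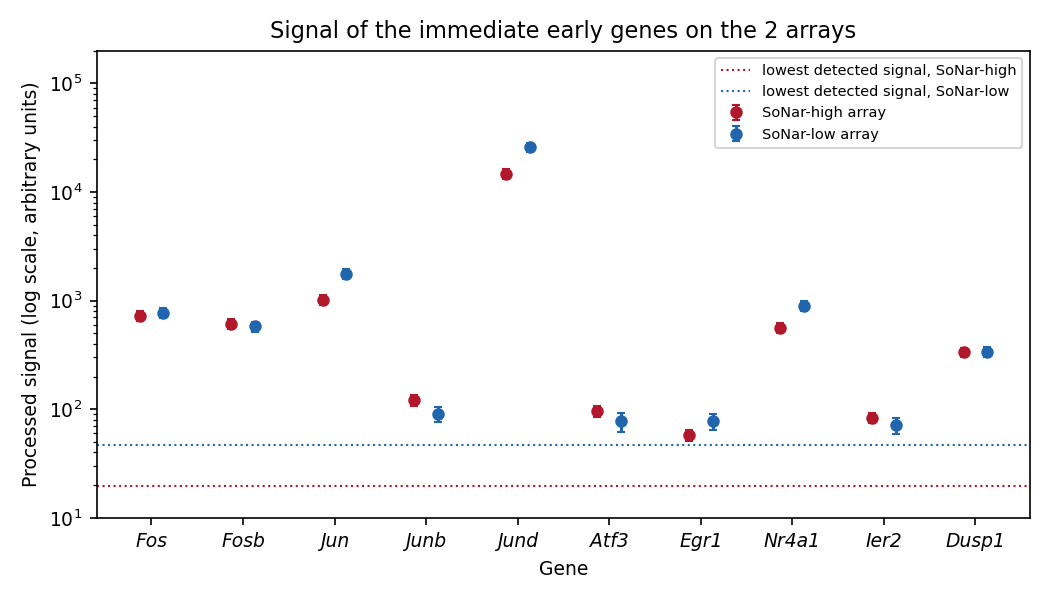
Processed signal in arbitrary units, on a log axis, of the 10 genes on the SoNar-high and SoNar-low arrays. Points are the mean over a gene's spots, bars the scanner software's error for a spot, and dotted lines the lowest detected signal of each array (19.7 and 46.4). Junb, Atf3, Egr1 and Ier2 lie within 2 times the SoNar-low line on that array, while Jun, Jund and Nr4a1 lie far above it with separated bars.

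In the main scaling the median log2 difference of the 10 genes was -0.18, against -0.17 over all measured genes, with 5 of the 10 below that median. That near match depended on the setting. The family's median lay below that of all genes by a difference of -0.17 with quantile normalization, -0.24 with cyclic loess and -0.20 in the authors' deposited table, with 7 of the 10 genes below in each, and by -0.33 with 8 below when all genes detected on at least 1 array were counted. None was at least 2-fold higher on the SoNar-high array, where 4.87% of all measured genes were, and none at least 2-fold lower, where 1.68% were. The middle 50% of all measured genes ran from -0.47 to 0.20, and Jund, Jun, Nr4a1 and Egr1 lay below it and Junb above it.

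The difference also varied with brightness over all genes, and the family spans that range. Among measured genes split into 10 equal classes by mean level, the median difference was 0.05 in the dimmest class, 0.18 in the next and -0.33 in the brightest. Relative to the median of its own class, a step added after the values were seen, Jun was at -0.67, Jund at -0.62, Egr1 at -0.62 and Nr4a1 at -0.59. The other 6 genes were between -0.09 (Dusp1) and 0.12 (Atf3). So 4 genes lay below genes of like brightness on these arrays and 6 lay within 0.12 of them. Junb, at 0.27 in the main scaling, was at 0.08 on this scale.

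**Figure D3:**
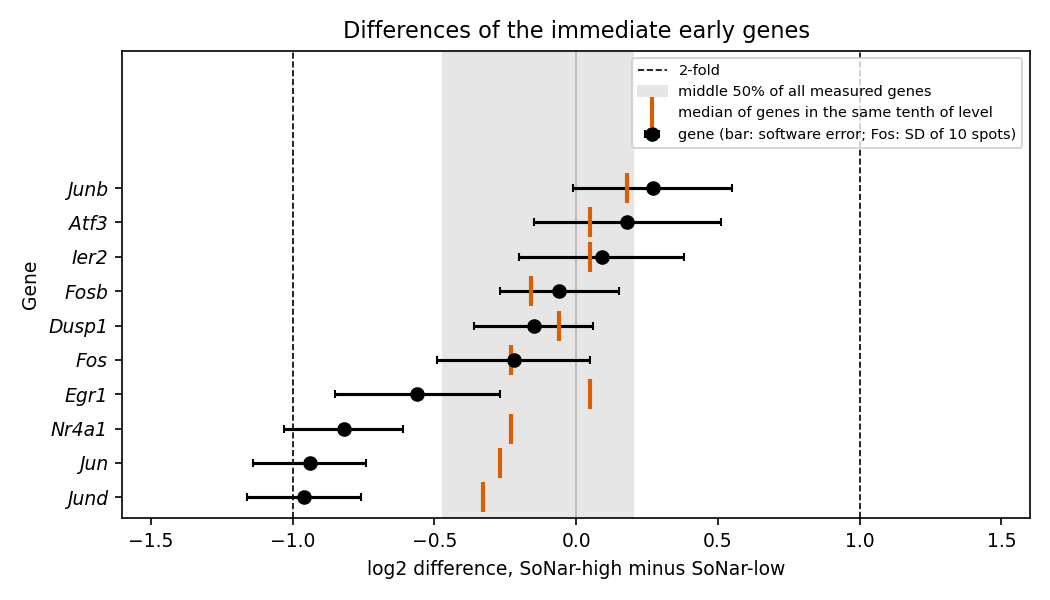
Difference on the log2 scale (SoNar-high less SoNar-low) of the 10 genes (points) with the error from the software's spot errors, or for Fos the SD of its 10 spots (bars). Orange ticks are the median of the measured genes in the same 1 of 10 brightness classes, the grey band the middle 50% of all measured genes, and dashed lines a 2-fold difference. Jund, Jun, Nr4a1 and Egr1 lie to the left of their ticks with bars that do not reach them, and the bars of the other 6 genes cover their ticks.

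Each value rests on 1 probe, and probes of a gene disagreed by more than spots of a probe. Over 183 probes with repeat spots, the SD of the spots' log2 differences had a median of 0.14. The probes of the 2021 genes with 2 measured probes differed by a median of 0.43. Where both probes were in the fifth brightness class or above, as the probes of Jun, Jund and Nr4a1 are, the median gap was 0.39 over 1016 genes, and 38% of these genes had a gap of at least 0.5. No second probe was available to check any of the 10 genes.

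Whether a gene passed 2-fold depended on the scaling. With median scaling every difference dropped by 0.61, and Jun (-1.55), Jund (-1.57), Nr4a1 (-1.43) and Egr1 (-1.18) were at least 2-fold lower, as were 31.4% of all measured genes. Egr1 was the 1 gene of the family past 2-fold with quantile normalization (3.33% of all measured genes lower), cyclic loess (2.85%) and in the authors' deposited table (4.09%). Jun, Jund, Nr4a1 and Egr1 were below 0 under all 12 other settings that could measure them, and Egr1 could not be measured under the stricter filter. The settings that changed only the filter, the probe choice or the outlier spots returned the main values of these genes, so they add no check. The sign was checked only by the other scalings, the background correction and the deposited table. It is a weak check, since 6646 of the 10517 measured genes had a value below 0 before any setting was changed. Scaling each array to its median took the median of all measured genes to -0.78. Fosb, Dusp1, Junb, Atf3 and Ier2 had values on both sides of 0, and Fos ran from -0.83 to 0.01, the latter relative to genes of like brightness.

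**Figure D4:**
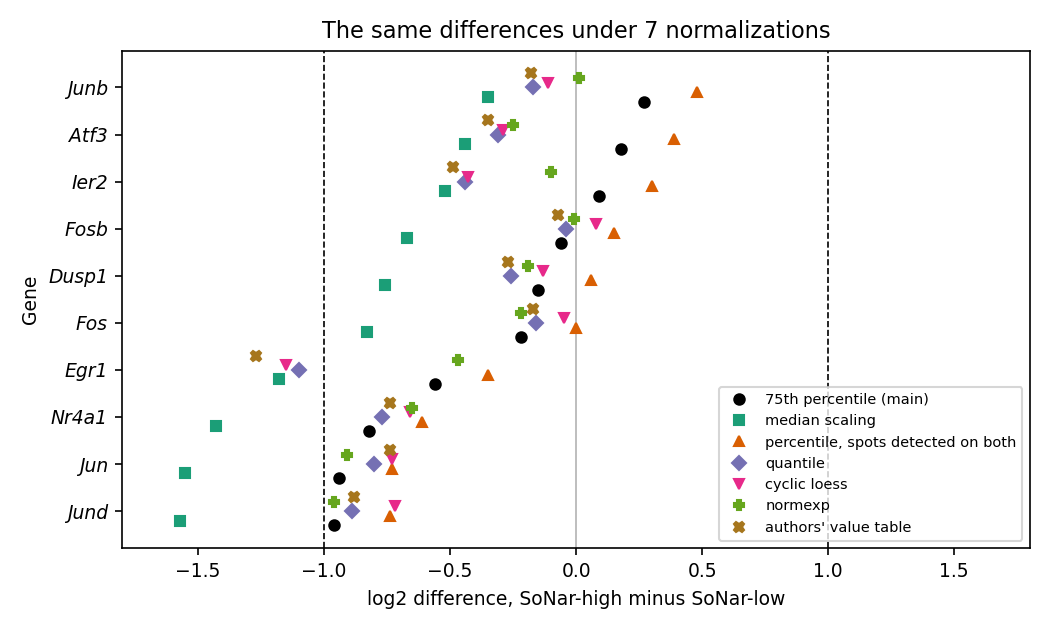
Difference on the log2 scale (SoNar-high less SoNar-low) of the 10 genes under 7 normalizations, each a marker shape. Dashed lines are a 2-fold difference. The markers of Jun, Jund, Nr4a1 and Egr1 stay left of 0 throughout, from -1.57 to -0.35, and Junb, Atf3 and Ier2 have markers on both sides of 0.

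The other genes of the response were counted from lists that were drawn up with earlier results of these data known. Of 16 other AP-1 and ATF genes 12 were measured, with a median of -0.16 and none past 2-fold in the main scaling. With median scaling 3 of the 12 were at least 2-fold lower, as were 31.4% of all measured genes. Highest in the main scaling were Ddit3 (0.19), a stress factor, and Batf (0.12), a lymphoid AP-1 protein. Lowest were Atf5 (-0.48) and Jdp2 (-0.45), a JUN partner that represses AP-1. The relatives of Egr1 and Nr4a1 were mostly too dim. Only Nr4a2, at -0.57, and Nab1, a corepressor of EGR proteins, at -0.84, were measured of 7, and Egr2, Egr4, Nr4a3 and Nab2 were detected on neither array. Both measured genes were lower on the SoNar-high array, as Egr1 and Nr4a1 were. So were 6646 of the 10517 measured genes, so this sign is common. Egr3 passed detection only in SoNar-high, with signals of 25.7 there and 10 in SoNar-low. Counting genes detected on at least 1 array took the list median to -0.09, with 1 of 3 genes at least 2-fold higher.

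Of 44 other primary response genes 29 were measured, with a median of -0.34, and 18 lay below the median of all genes. Gadd45a, which slows the cell cycle after damage, was at least 2-fold higher (1.17), and Plk2, a polo-like kinase, at least 2-fold lower (-1.15), the latter at signals of 47.1 and 94.3. Both calls depended on the setting. Gadd45a came to 0.55 with median scaling, 0.88 with normexp and 0.98 in the authors' deposited table, and Plk2 to -0.77 with normexp. With median scaling 12 of the 29 were at least 2-fold lower and none higher. The next were Nfkbiz, an inducible nuclear NF-kB cofactor, at 0.84, and Rgs2, a regulator of G protein signalling, at -0.89. Of the genes that destabilise or bind AU-rich transcripts such as Fos mRNA, 8 of 10 were measured, with a median of -0.55. None was past 2-fold in the main scaling. With median scaling 5 of the 8 were at least 2-fold lower, as were 31.4% of all measured genes. Relative to genes of like brightness the list median was -0.22. Zfp36l1, a decay factor, was at -0.87 and Cnot1, the scaffold of the deadenylase complex, at -0.82, while the deadenylase Cnot7 was at 0.66 and the decay factor Khsrp at 0.24.

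Upstream of the family, none of the measured kinases or factors was past 2-fold in the main scaling. With median scaling, where 31.4% of all measured genes were at least 2-fold lower, so were 1 of 12 ERK cascade genes, 5 of 11 JNK and p38 genes, 2 of 6 of the serum response factor list and 2 of 6 CREB genes. The ERK cascade (12 of 14 genes measured) had a median of -0.12, with the kinase gene Rps6ka1 at -0.37, Araf at 0.24 and the ERK gene Mapk3 at 0.27. The JNK and p38 stress kinases (11 of 13) had a median of -0.24, with Map2k4, which activates JNK, at 0.72, Mapk11 at 0.07, Mapkapk3 at -0.53 and the JNK gene Mapk8 at -0.55. Mapk8 was past 2-fold with quantile normalization (-1.03) and in the authors' deposited table (-1.16). Serum response factor and its cofactors (6 of 6) had a median of -0.17, with Srf at -0.54 and its coactivator Mrtfb at -0.92, and the ternary complex factors Elk4 at 0.31 and Elk3 at -0.04. CREB factors and coactivators (6 of 8) had a median of 0.00, with Creb1 at -0.56, Crtc1 at -0.43, Crtc3 at 0.22 and the acetyltransferase gene Ep300 at 0.78. For comparison, 12 genes of steady expression had a median of -0.11, from Hprt (-0.60) and Pgk1 (-0.43) to Rplp0 (0.38) and Eef1a1 (0.96).

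In these lists 15 further genes were detected in SoNar-high alone and none in SoNar-low alone. Over all 20618 named genes, 15984 were detected on at least 1 array and 10517 on both. The SoNar-high array detected 72.9% of its spots and the SoNar-low array 44.8%. Genes detected on 1 array alone are thus common beyond these lists, and the count is not a result about them. Where the SoNar-high level lay above the lowest detected level of the other array a bound could be given in the main scaling. Ksr1, the scaffold of the ERK cascade, was at least 2.62-fold higher on the SoNar-high array, Mapk13 at least 1.54-fold, Klf6 at least 1.52-fold and the decay factor Zfp36 at least 1.49-fold. The other 11, among them Fosl1, Egr3, Arc and Rgs1, were too dim there for any fold.

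**Figure D5:**
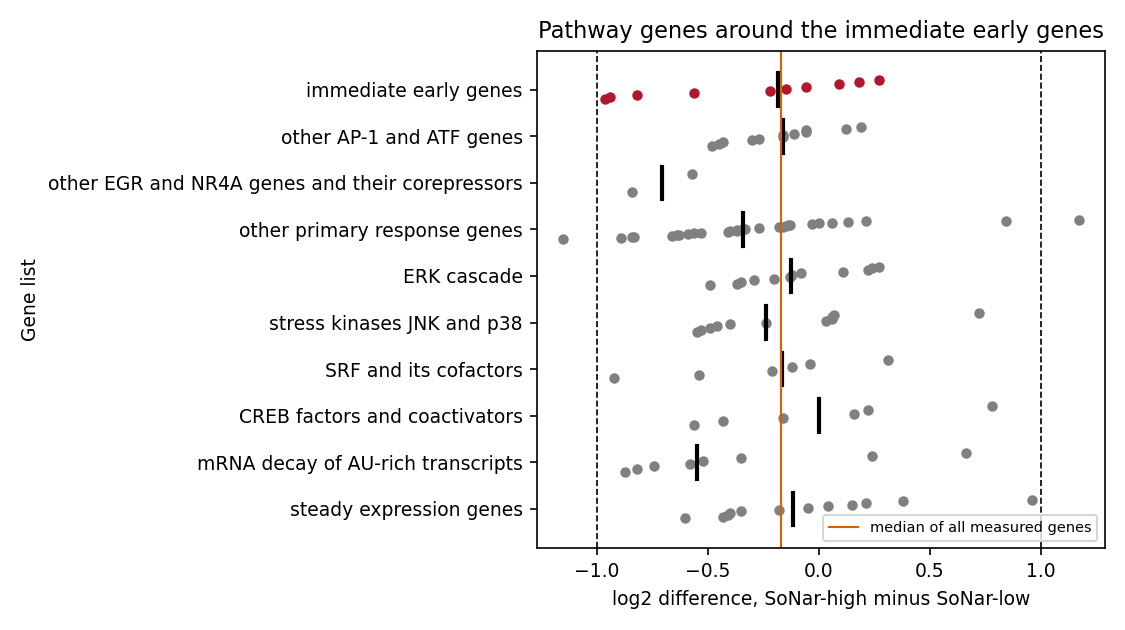
Difference on the log2 scale (SoNar-high less SoNar-low) of the measured genes of each list (points) with the list median (black bar). The orange line is the median of all measured genes (-0.17) and dashed lines mark a 2-fold difference. In this main scaling the immediate early genes (red) centre on the orange line, and the lists of mRNA decay genes (-0.55) and other primary response genes (-0.34) centre to its left.

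Markers of other marrow cells mostly had higher scaled values in SoNar-high. The neutrophil list (12 of 14 measured) had a median of 0.59, with Ngp, Ctsg and Retnlg at least 2-fold higher, and a summed scaled signal of 48.1 in SoNar-high and 38.3 in SoNar-low. Prtn3 (-0.32) and S100a9 (-0.15, with signals of 8479 and 8533) went the other way in that list, and its other measured genes were above 0. The monocyte list (5 of 9 measured, median 0.82, with Csf1r at 1.25) had sums of 2.08 and 1.18, and the natural killer list (2 of 6, with Prf1 at 1.22 and Gzma at 1.12) had 0.666 and 0.295. The T cell (4 of 8), erythroid (3 of 8) and stromal (5 of 8) lists had medians of 0.58, 1.67 and 0.69, but their sums were lower on the SoNar-high array, at 5.45 against 5.55, 29.1 against 48.6 and 17.5 against 27.9. Most of the erythroid sum was Hemgn, with signals of 14153 and 22791 and a difference of -0.83, and most of the stromal sum was Alpl, with 7773 and 12517 and also -0.83. Every other measured gene of the erythroid and stromal lists was higher on the SoNar-high array. Past 2-fold in the T cell, erythroid and stromal lists were Cd4 (1.72) and Cd3e (1.26), Hba-a1 (1.88) and Ermap (1.67), and Kdr (1.54) and Lepr (1.02). The other measured T cell genes went the other way, with Lck at -0.94 and Zap70 at -0.09. The defining genes Cd3d, Gzmb and Cxcl12 were detected on neither array. Over all measured genes 4.87% were at least 2-fold higher in the main scaling. These marker calls depended on the setting. Ctsg, Retnlg, Csf1r, Prf1, Gzma, Cd3e and Lepr fell below 2-fold both with median scaling and with normexp, and Ngp and Kdr with median scaling. Cd4, Hba-a1 and Ermap stayed at least 2-fold higher with both. Median scaling takes the neutrophil and T cell medians below 0. In these sorted bulk samples fewer cells of a type and less RNA per cell cannot be told apart, and the part of other cells in the values of the 10 genes was not tested.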

How the data were processed

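The scanner files deposited by the authors hold linear spot intensity, from which background was subtracted and spatial trends were removed array by array with Agilent Feature Extraction 11.0.1.1, per the file headers. Version 9.1 is named in the submitters' processing notes. The flags for detection and outliers are other columns of the same deposited files. The log2 values of the deposited table share their quantiles between the arrays to within 0.04, per the values, and how it was made is not given in the sources used here. The table served only as an alternative.

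Processed signals were divided by the 75th percentile of an array's non-control spots and put on the log2 scale. The 685 spots that the software marked as outliers on either array were left out, and spots of a probe were averaged. Detection of a probe needed over 50% of its spots well above background, and probes detected on both arrays were averaged per gene. Probes were named through unversioned RefSeq accessions (27234 of 39429). A difference of at least 1 on the log2 scale counts as 2-fold. The error of a difference combines the software's spot errors of both arrays as proportions of the signal, and leaves out all biological error. For the brighter genes the software's error was close to a fixed share of the signal. For Fos it was 72.6 in SoNar-high and 77.7 in SoNar-low, where the SD of the 10 spots was 36.4 and 119. Lists with under 3 measured genes are given by gene.

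The members and lists were chosen with earlier results of these data known. Named besides the 10 genes are up to 2 highest and 2 lowest genes of each pathway list, any past 2-fold, and in cell type lists those past 2-fold. Also named there are the B cell genes Cd79a, Ebf1 and Pax5, genes that went the other way, and some early or defining genes, detected or not. A few genes that this rule covers are not reported here. No gene was named for a like pattern, since 2 arrays give none. There were 12 alternatives (other scalings, background correction, filters on dim probes, probe choice, the deposited table, outlier spots kept) and 1 added after the values were seen. Scripts were tested on simulated data. Python 3.11.15, numpy, pandas, R 4.3.3 and limma 3.58.1 (quantile, cyclic loess, and normexp with an offset of 50 on median spot and background signals) were used.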

Additional observations from a re-analysis of the deposited data

How the results depend on the processing

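No paired analysis was possible because there was 1 array a group, which also leaves none to omit. The median over the family, -0.18 in the main scaling, was -0.80 with median scaling, 0.03 with a 75th percentile over only those spots that both arrays detected, -0.37 with quantile normalization, -0.36 with cyclic loess, -0.42 in the authors' value table, -0.52 under the stricter filter, which leaves 6 of the 10 genes, and -0.04 relative to genes of like brightness, an alternative chosen after seeing the data. With normexp it was -0.23, and it stayed at -0.18 under the other 5 alternatives. The count of genes at least 2-fold lower went from 0 to 4 with median scaling and to 1 with cyclic loess, quantile normalization and the deposited value table, and stayed at 0 under the others, as the count of higher genes did under all 12. Median scaling and the other percentile shift all genes alike, and the stricter filter tests fewer genes. For the other settings the cause was not tested. Detection of all 10 genes fell to 6 when a signal of over 2 times the lowest detected signal was demanded on both arrays, without Junb, Atf3, Egr1 and Ier2. The EGR motif was found in 1 of 8 windows on the sense strand alone, against 2 on both strands, and the core TGACG in 4 of 8 (12.4% of all windows), against 6. Of 116 values of single genes under the alternatives, 75 moved by less than the spread between repeat spots, 34 moved by more without passing 2-fold and 7 passed it. The choice of probe and the filters could not change a gene's value, only drop it, because each gene had 1 probe, detected on both arrays. Keeping outlier spots changed no value either. All these unchanged values are among the 75, so that count is not a measure of stability. The list medians of the mRNA decay genes (-1.17 to -0.33) and of the other primary response genes (-0.96 to -0.13) stayed below 0 in the main scaling and its 12 alternatives. So did those of the JNK and p38 kinases (-0.86 to -0.03) and of the sparsely measured EGR and NR4A list, while that of the CREB factors ran from -0.61 to 0.23. The median of all measured genes was itself -0.17 in the main scaling and -0.78 with median scaling. Relative to genes of like brightness the medians of the decay, primary response, JNK and p38, and CREB lists were -0.22, -0.29, -0.15 and 0.33. The difference between the median of the family and that of all genes was -0.30 under the stricter filter and -0.19 with no filter, against -0.02 in the main scaling. Plk2 was not at least 2-fold lower with the other percentile. Under a common lowest level it was too dim in SoNar-high to be measured, which left 28 of the other primary response genes. Depth of signal limits Junb, Atf3, Egr1 and Ier2 most.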
